A study of Mus musculus with 6 samples.

Results

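The HoxA cluster is a run of homeobox genes on mouse chromosome 6, and its expression was compared between neural progenitor cells and the embryonic stem cells they were made from. The members were the genes Hoxa2, Hoxa3, Hoxa4, Hoxa5, Hoxa6, Hoxa7, Hoxa9, Hoxa10, Hoxa11 and Hoxa13, found by symbol in the platform's probe annotation. They are 10 of 21893 named genes, read by 12 of 55681 probes: 8 members had 1 probe, and Hoxa9 and Hoxa13 had 2. The NPC group was differentiated for 5 days with the supplements NB27 and Neuro2 and then passed through a GFP cell sorter, and it was set against undifferentiated cells (ESC). Both came from the ES cell line 46c of strain 129/Ola, in which GFP reports the neural gene Sox1. By the labels all arrays therefore carry the reporter and derive from 1 line. The title of ESC replicate 3 spells the line name unlike the other ESC titles, and the labels do not explain this. Whether the GFP-positive cells were taken is not written in the labels. Each group has 3 arrays from biological replicates, and precision is limited by that number.

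Hox genes encode transcription factors that bind DNA through a homeodomain and give cells their position along the head-to-tail axis. The genes of a cluster lie in the same order as the body levels at which they act: those at the 3′ end are switched on first and reach furthest forward, into the hindbrain, and those at the 5′ end act in the posterior trunk, the limbs and the urogenital tract. Retinoic acid is known to induce the 3′ genes, Cdx proteins act on the central ones, and Polycomb complexes keep clusters silent in ES cells.

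Values are log2 signals from Agilent arrays with 1 dye, quantile normalised by the authors. All arrays share a median of 5.32 and an upper quartile of 8.33 over all probes. No detection calls were used here, so signals under 6 were also examined with a floor of 6. Changes are NPC minus ESC on the log2 scale ± SE, with limma p-values adjusted by the Benjamini-Hochberg method over all genes. Less RNA per cell and fewer expressing cells cannot be told apart in such bulk samples. The labels were checked against marker lists. Of 10 ES cell markers, among them Pou5f1 and Zfp42, 10 fell in NPC. Of 10 neural progenitor markers, among them Sox1, the gene of the sorting reporter, 7 rose. Sox1 rose by its brighter probe, and its other probe gave 0.91 and no call (adjusted p = 0.542 over probes). Sox2 did not pass, Pax6 passed only with the replicate number as a block (adjusted p = 0.00606), and the 2 probes of Msi1 disagreed: the brighter gave -0.48 and no call, and the other rose by 3.99 (adjusted p = 0.000829 over probes). Of 8 neuronal markers 5 rose (6 with that block), but 3 without NPC replicate 1. The call of Elavl4 by its brighter probe was lost whichever array was left out, while its other probe rose by 5.45 (adjusted p = 0.000715 over probes).

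The promoter windows of the members that rose are shown with 2 from members that did not, as these are start regions of genes in the same cluster that gave unlike results. The windows are from RefSeq (build GRCm38.p6), run from 250 bases before to 50 after the annotated start, and are given 5′ to 3′ on the minus strand, the strand of the genes. A window was found for 9 of the 10 members, and Hoxa4 had none. The positions are chr6:52164782-52165081 for Hoxa2, chr6:52213018-52213317 for Hoxa3, chr6:52204538-52204837 for Hoxa5, chr6:52218524-52218823 for Hoxa7 and chr6:52260831-52261130 for Hoxa13. Capitals mark motif matches.
Hoxa2: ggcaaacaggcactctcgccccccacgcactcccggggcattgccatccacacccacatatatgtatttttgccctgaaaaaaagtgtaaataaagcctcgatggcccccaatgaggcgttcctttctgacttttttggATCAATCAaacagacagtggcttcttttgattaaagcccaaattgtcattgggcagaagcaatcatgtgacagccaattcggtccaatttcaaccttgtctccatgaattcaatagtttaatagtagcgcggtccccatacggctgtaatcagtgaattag
Hoxa3: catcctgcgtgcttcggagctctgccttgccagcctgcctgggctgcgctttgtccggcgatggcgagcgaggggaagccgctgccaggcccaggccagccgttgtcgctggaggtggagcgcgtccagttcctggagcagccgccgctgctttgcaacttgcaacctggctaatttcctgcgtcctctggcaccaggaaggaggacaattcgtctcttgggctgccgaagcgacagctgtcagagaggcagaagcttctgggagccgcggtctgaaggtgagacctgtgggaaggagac
Hoxa5: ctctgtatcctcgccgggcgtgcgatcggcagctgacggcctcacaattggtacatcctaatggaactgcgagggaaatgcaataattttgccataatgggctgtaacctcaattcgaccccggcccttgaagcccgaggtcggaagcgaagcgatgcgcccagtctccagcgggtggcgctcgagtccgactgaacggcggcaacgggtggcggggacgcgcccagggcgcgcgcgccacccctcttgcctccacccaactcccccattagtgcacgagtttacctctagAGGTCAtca
Hoxa7: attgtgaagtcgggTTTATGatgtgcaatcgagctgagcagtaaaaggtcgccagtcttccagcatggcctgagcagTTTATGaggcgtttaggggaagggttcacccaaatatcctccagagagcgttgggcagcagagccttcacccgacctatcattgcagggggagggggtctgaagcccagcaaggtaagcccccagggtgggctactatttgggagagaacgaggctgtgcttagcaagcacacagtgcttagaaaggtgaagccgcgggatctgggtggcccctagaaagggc
Hoxa13: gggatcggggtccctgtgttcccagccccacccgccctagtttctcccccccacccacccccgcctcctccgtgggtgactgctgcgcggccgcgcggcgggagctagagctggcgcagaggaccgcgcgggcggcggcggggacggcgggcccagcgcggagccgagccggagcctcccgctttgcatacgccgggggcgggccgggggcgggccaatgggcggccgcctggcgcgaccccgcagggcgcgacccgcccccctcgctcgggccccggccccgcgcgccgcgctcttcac

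These motifs were searched on both strands: TATAAA (a core promoter box), AGGTCA (the core bound by retinoid receptors), TGATNNAT (joint sites of Hox and Pbx proteins), TTTATG (Cdx) and TAATTA (homeodomain core). No 2 matches overlapped in the windows shown. Hoxa2 held 1 match to TGATNNAT, starting at base 140, which 8.85% of all 32851 RefSeq windows hold. Hoxa5 held 1 match to AGGTCA at base 292, which 16.3% of windows hold. Hoxa7, a member that was not called, held 2 matches to TTTATG, which 11.9% of windows hold. Hoxa3 and Hoxa13 held no match, and neither did the windows of Hoxa6, Hoxa9 and Hoxa11, which are not shown. TATAAA stood in 13.6% of all windows and in 1 of the windows of Hoxa10, and TAATTA stood in 5.29% of all windows and in no member's. A match is a string of letters and not a shown binding site. The windows differed in base composition: Hoxa13 was 81.0% G and C with 45 CpG dinucleotides, more than 98.1% of windows, while Hoxa2 was 45.7% G and C with 9 CpGs. Hoxa3 had 20 CpGs and Hoxa5 had 29. In the RefSeq gene table (GRCm38.p6) the annotated span of Hoxa3 runs across Hoxa4, Hoxa5 and Hoxa6, so the Hoxa3 window shown lies beyond Hoxa6. The Hoxa3 start that the probe reads is not known here.

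Hoxa2, Hoxa3 and Hoxa5 were higher in NPC, and no member was lower. Hoxa2 and Hoxa3 lie next to each other at the 3′ end of the measured cluster, and Hoxa5 is separated from them by Hoxa4, which did not pass the test. The 3 rises differed widely in size, at 8.88, 5.06 and 1.73. Of all genes tested, 20.6% were called, 11.1% higher in NPC and 9.54% lower. By probe, 3 of the 12 were called higher and 0 lower, where 6.08% and 5.43% of all probes were. The median change over the 10 members was 0.10, beside 0.01 over all genes.

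**Figure D1:**
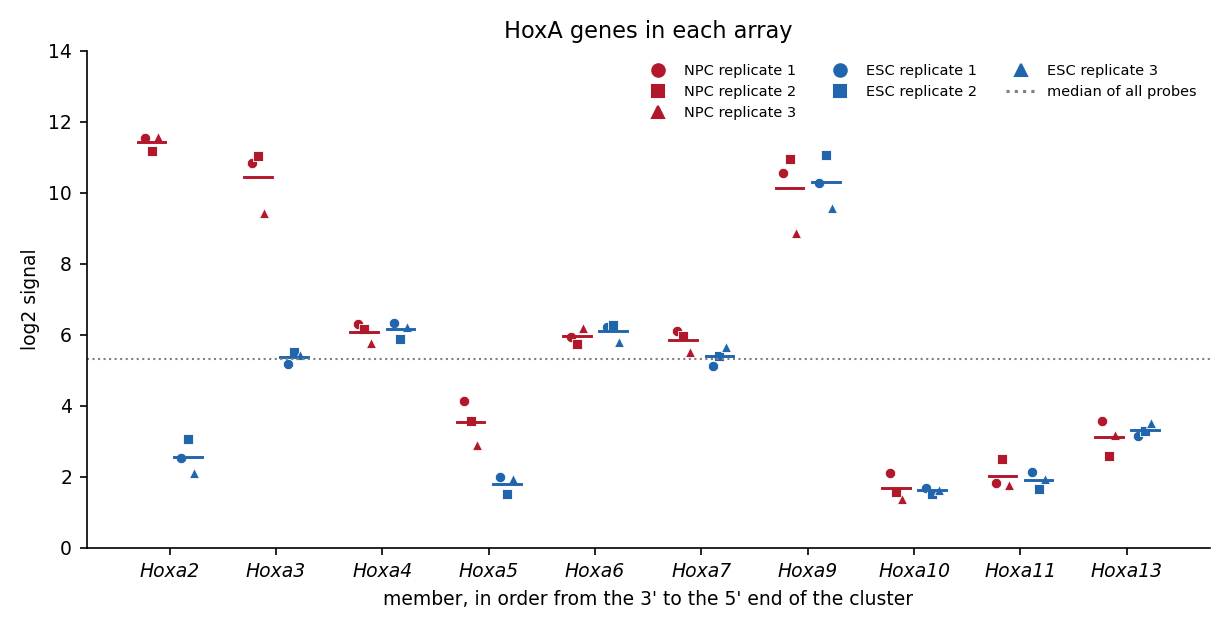
Log2 signal (vertical axis) of the 10 HoxA genes in cluster order (horizontal axis), with NPC arrays in red to the left of ESC arrays in blue, a symbol per replicate, a bar at each group mean and a dotted line at the median of all probes (5.32). NPC and ESC arrays lie apart for Hoxa2, Hoxa3 and Hoxa5 and overlap for the other members, and the Hoxa5 values are below the dotted line in both groups.

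Hoxa2 is the member expressed furthest forward in the hindbrain, where it patterns rhombomeres and the neural crest of the second pharyngeal arch. It read 11.53, 11.18 and 11.58 in NPC replicates 1, 2 and 3, against 2.52, 3.05 and 2.10 in ESC replicates 1, 2 and 3. The NPC values lie close together and far above all ESC values. The change was 8.88 ± 0.30 (95% interval 8.15 to 9.61, adjusted p = 6.09e-05), or 469.6-fold as measured. The NPC mean lay above 90.9% of all probe values and the ESC mean above 20.7%. With values under 6 set to 6 the change was 5.43 (adjusted p = 0.000206), so the call did not need the low ESC signals but the size did.

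Hoxa3 acts in the hindbrain and in the more posterior pharyngeal arches, from which thymus and parathyroid arise. It read 10.83, 11.03 and 9.44 in NPC, against 5.19, 5.51 and 5.42 in ESC. NPC replicate 3 was lower than the other NPC arrays but still well above the highest ESC array. The change was 5.06 ± 0.45 (95% interval 3.95 to 6.16, adjusted p = 0.000940), a 33.3-fold difference. The ESC mean lay above 50.6% of probe values, so the smaller change of Hoxa3 beside Hoxa2 goes with a higher ESC signal of its probe. With the floor of 6 the changes of Hoxa3 and Hoxa2 were 4.43 and 5.43. Levels of different probes are not comparable, and the difference between these 2 changes was not tested.

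Hoxa5, a gene of the cervical and upper thoracic level with roles in lung and skeleton, read 4.14, 3.58 and 2.90 in NPC, against 1.99, 1.51 and 1.94 in ESC. The groups did not overlap, but all 6 values lay under the median of all probes. The change was 1.73 ± 0.36 (95% interval 0.85 to 2.61, adjusted p = 0.0206), a 3.31-fold difference. The call of Hoxa5 ended in 5 of 6 fits that left out 1 array, with adjusted p up to 0.0714, and held only without NPC replicate 3 (0.00920). With values under 6 set to 6 no difference was left.

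The other central members gave no call. Hoxa4, the neighbour between Hoxa3 and Hoxa5, read 6.30, 6.16 and 5.77 in NPC, against 6.35, 5.89 and 6.23 in ESC. These ranges overlap, and the 95% interval of the change ran from -0.66 to 0.50 (adjusted p = 0.871). Hoxa6 read 5.95, 5.73 and 6.20 in NPC, against 6.21, 6.29 and 5.81 in ESC, with an interval of -0.71 to 0.42. Both genes act in the neck and trunk. Hoxa7, a trunk gene, read 6.09, 5.96 and 5.52 in NPC, against 5.12, 5.40 and 5.65 in ESC. NPC replicates 1 and 2 lay above all ESC arrays and replicate 3 did not, and the change of 0.47 ± 0.25 did not pass (interval -0.14 to 1.08, adjusted p = 0.276).

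At the 5′ end, Hoxa9 stood out by its signal and not by its change. Hoxa9, which acts in the posterior trunk and in blood progenitors, read 10.57, 10.96 and 8.87 in NPC, against 10.28, 11.05 and 9.58 in ESC by its brighter probe. In both groups replicate 2 was highest and replicate 3 lowest, and the ranges overlap. The change was -0.17 ± 0.65 (interval -1.78 to 1.44, adjusted p = 0.905), the widest interval of the 10 members, and same-numbered arrays differed by 0.29, -0.09 and -0.71. Its other probe read 5.34, 5.56 and 5.32 in NPC, against 5.72, 5.91 and 5.49 in ESC. That probe, too, gave no call in the fit over all 55681 probes (-0.30 ± 0.19, adjusted p = 0.470), and 11.5% of all probes were called. Both probes are annotated to the same gene but read unlike levels, and what each probe binds was not checked. The data therefore do not settle whether Hoxa9 transcript was present in ESC.

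Hoxa10, Hoxa11 and Hoxa13, which pattern the limbs and the urogenital tract, stayed near the bottom of the scale in both groups. Hoxa10 read 2.10, 1.57 and 1.38 in NPC, against 1.70, 1.52 and 1.62 in ESC. Hoxa11 read 1.83, 2.50 and 1.76 in NPC, against 2.13, 1.67 and 1.92 in ESC. Hoxa13 read 3.58, 2.59 and 3.17 in NPC, against 3.15, 3.30 and 3.53 in ESC by its brighter probe. No array of these 3 genes lay above 30.3% of all probe values. Their 95% intervals lay within -0.95 to 0.80, and the groups overlapped for each. The second probe of Hoxa13 was dimmer still, with means of 1.34 in NPC and 1.57 in ESC and no call (adjusted p = 0.682). Changes of transcripts below what these probes detect would not be visible.

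Set against position, the changes were largest at the 3′ end without falling evenly along the cluster. Spearman's rho of cluster order with the change was -0.67 over the 10 genes, and with the NPC mean it was -0.79. With the ESC mean it was -0.18. These are descriptions, as the genes share the same arrays and each mean depends on its probe. With values under 6 set to 6, the correlation with the change was -0.38. Within same-numbered arrays rho was -0.54, -0.67 and -0.62. All NPC arrays lay above all ESC arrays for 3 members, where 19.6% of all genes did so, and 0 members showed the reverse, where 17.4% of all genes did (37.0% either way). NPC replicate 3 was the lowest NPC array for 7 of 10 members, Hoxa2, Hoxa6 and Hoxa13 being the exceptions, but it was also the lowest for 55.7% of all genes.

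Of the listed genes around the cluster, Evx1 rose and Skap2 fell. Hoxaas3 and Hoxa11os, the noncoding RNAs measured within the cluster, gave no call, and others there, such as Hotairm1 and Mira, were not measured. Of 17 listed neighbours 10 were measured, with 1 called higher and 1 lower, and with the replicate number as a block 1 and 3. Of all genes 11.1% were called higher and 9.54% lower, near the shares of the neighbours. The replicate block raised the shares over all genes to 18.9% and 16.7% (35.7% either way). Evx1, a homeobox gene beyond the 5′ end of the cluster that marks spinal interneurons, read 6.38, 7.93 and 6.92 in NPC, against 3.99, 4.88 and 3.89 in ESC. The groups lie apart, and the change was 2.82 ± 0.48 (adjusted p = 0.0102). Its call ended without ESC replicate 1 (adjusted p = 0.0507) and with the floor of 6 (change 1.08, adjusted p = 0.262). A called gene therefore flanks the 5′ end, where Hoxa9 to Hoxa13 were not called.

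The antisense transcript Evx1os, which overlaps Evx1 in the annotation, differed by 1.32 ± 0.37 without passing (adjusted p = 0.0563), although its NPC arrays all lay above its ESC arrays. Hoxaas3, which overlaps Hoxa3, Hoxa5 and Hoxa6 in the annotation, differed by 0.29 ± 0.31, and its highest value was 2.55. Hoxa11os differed by -0.14 ± 0.35 and Hottip, a noncoding RNA known to act on the 5′ HoxA genes, by -0.31 ± 0.38. None of these 3 passed the test. On the 3′ side Skap2, an adaptor of immune cell signalling, read 10.06, 10.01 and 10.07 in NPC, against 11.23, 11.19 and 11.40 in ESC. It fell by 1.23 ± 0.17 (adjusted p = 0.00441), opposite in direction to Hoxa2, the next member measured. Snx10, at -0.90 ± 0.52, and Hibadh, at -0.78 ± 0.24, gave adjusted p = 0.323 and 0.0762, and passed once the replicate number was a block (0.0421 and 0.0387). Tax1bp1, at -0.48 ± 0.98, and Jazf1, at 2.10 ± 1.06, did not pass.

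**Figure D2:**
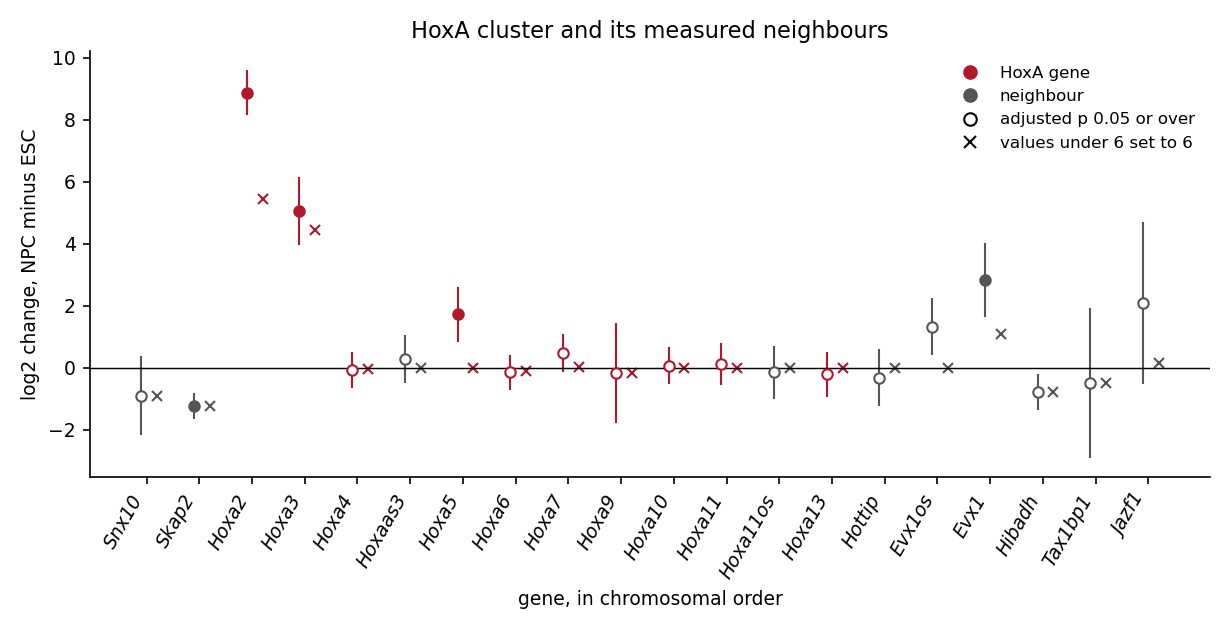
Log2 change of NPC minus ESC (vertical axis, points with 95% intervals) for the HoxA genes in red and the measured listed neighbours in grey, in chromosomal order (horizontal axis). Filled points passed the test and open ones did not, and crosses give the change with values under 6 set to 6. Hoxa2 (8.88) and Hoxa3 (5.06) stand highest, Hoxa4 and all members from Hoxa6 to Hoxa13 are open points near 0, and Evx1 (2.82) rises again at the far side.

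The other Hox clusters hold paralogs, genes of the same position that descend from a common ancestor and often act at the same body level. In paralog group 2, Hoxb2 rose by 9.99 ± 0.19, beside 8.88 for Hoxa2. In group 3, Hoxb3 rose by 8.90 ± 0.29 by its brighter probe, whereas Hoxd3 differed by 2.46 ± 0.92 without passing (adjusted p = 0.128). The other Hoxb3 probe differed by 3.85 ± 0.96 without passing over probes (adjusted p = 0.0639), and passed with the block (0.0109). In group 5, Hoxb5 differed by 1.33 ± 0.48 (adjusted p = 0.119) and passed with the block (0.0117). Hoxc5 differed by 0.36 ± 0.54 and did not pass.

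In group 4 the HoxA gene was the 1 measured paralog without a call. Hoxb4 read 10.06, 10.92 and 8.50 in NPC, against 1.93, 2.45 and 2.50 in ESC, a rise of 7.53 ± 0.62. Hoxc4 rose by 3.80 ± 0.45 and Hoxd4 by 2.65 ± 0.63, but the call of Hoxd4 ended in 5 of 6 fits that left out 1 array (adjusted p up to 0.119), and with the floor of 6 neither passed (0.0985 and 0.363). The 95% interval of Hoxa4, up to 0.50, holds none of these 3 changes. Its 1 probe read near the floor of 6 in both groups, with means of 6.08 in NPC and 6.16 in ESC. A change of Hoxa4 below what that probe detects would not be visible. Hoxa4 and its paralogs in group 4 were named after their values were seen. The change of Hoxa4 was smaller than that of Hoxb4, with a difference of -7.61 on the log2 scale that gave p = 0.10 in a two-sided exact permutation test over the arrays (0.16 adjusted over 8 pairs). That is the smallest p this design allows. The same p of 0.10 was found for Hoxa2 minus Hoxb2 (-1.12), Hoxa3 minus Hoxb3 (-3.85), Hoxa7 minus Hoxb7 (-2.89) and Hoxa13 minus Hoxb13 (2.28). Several of these sizes rest on low signals, such as the ESC mean of 1.12 of Hoxb3. They also depend on the probe, as the dimmer Hoxb3 probe, with a change of 3.85, was not compared. With values under 6 set to 6, an alternative added after the data were seen, Hoxa3 minus Hoxb3 turned to 0.41 and Hoxa13 minus Hoxb13 to 0. With that floor Hoxa2 minus Hoxb2 was -2.03, Hoxa4 minus Hoxb4 -3.87 and Hoxa7 minus Hoxb7 -1.11. The pairs of groups 5, 6 and 9 differed by 0.40, 0.12 and 0.72 (exact permutation p = 0.50, 0.90 and 0.50). No pair can pass 0.05 with 3 arrays a group.

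Counted over clusters, 3 of 10 HoxA genes rose and 0 fell, beside 6 of 10 HoxB genes that rose and 2 that fell. In HoxC, 1 of 9 rose and 1 fell, and in HoxD likewise 1 of 9 and 1. Over all genes 11.1% rose and 9.54% fell, so the HoxC and HoxD counts lie near the share of all genes. The median changes of HoxA, HoxB, HoxC and HoxD were 0.10, 4.34, 0.39 and 0.26, against 0, 1.19, 0 and 0 under the floor of 6. With values under 6 set to 6 the risen genes numbered 2 in HoxA, 4 in HoxB and 0 in HoxC and HoxD, and 0 fell in each cluster. With that floor 12.9% of all genes were called, 6.97% higher and 5.92% lower.

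**Figure D3:**
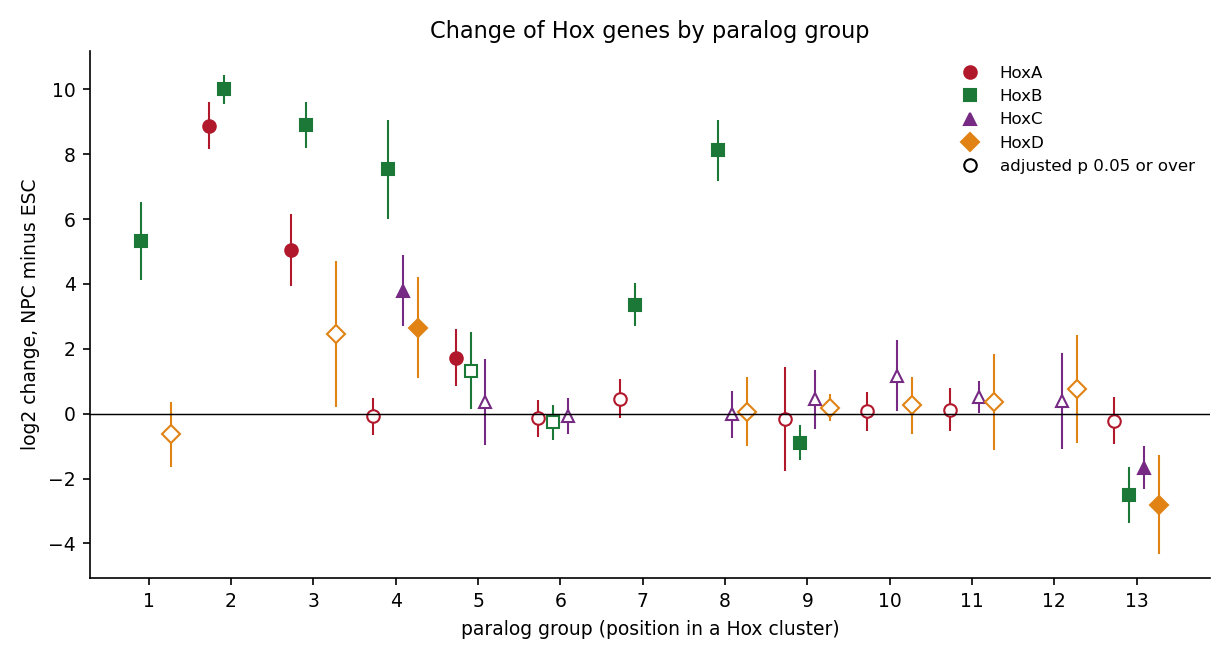
Log2 change of NPC minus ESC with 95% intervals (vertical axis) for every measured Hox gene by paralog group (horizontal axis), with a colour and symbol per cluster, and open symbols for genes that did not pass. HoxA and HoxB genes both rise in groups 2 and 3, and in group 4 the HoxA point lies at -0.08 while Hoxb4 lies at 7.53.

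Hox proteins bind DNA together with TALE homeodomain cofactors of the Pbx, Meis and Pknox families. Of 8 measured cofactor genes 4 rose and 0 fell (6 and 0 with the replicate block), with a median change of 2.34. The shares over all genes were 11.1% higher and 9.54% lower, and 18.9% and 16.7% with the block. Meis2 read 13.37, 13.06 and 13.73 in NPC, against 6.38, 7.22 and 7.60 in ESC, a rise of 6.32 ± 0.37. Meis1 rose by 5.54 ± 0.44, Pknox2 by 4.60 ± 0.70 and Pbx3 by 2.70 ± 0.20, the last with both probes called. The floor of 6 ended none of these 4 calls.

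Genes known to act upstream of Hox clusters went both ways: of 10 measured regulators 1 rose and 3 fell, and 3 rose and 3 fell with the replicate block. Of all genes 11.1% rose and 9.54% fell, or 18.9% and 16.7% with the block. The count of 1 risen regulator lies near that share. Egr2, a zinc finger factor that drives Hoxa2 in rhombomeres of the hindbrain, read 7.59, 8.23 and 8.42 in NPC, against 3.30, 3.94 and 3.35 in ESC. It rose by 4.55 ± 0.31, or by 2.08 with the floor of 6. Cdx2 and Cdx1, activators of central Hox genes in the posterior embryo, fell by 3.99 ± 0.19 and fell by 2.77 ± 0.25, with means of 1.22 and 5.03 in NPC against 5.20 and 7.80 in ESC. With the floor of 6 the call of Cdx2 was lost and Cdx1 fell by 1.80. Gbx2, a factor of the anterior hindbrain, fell by 2.47 ± 0.32.

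Of 17 measured retinoic acid genes 4 rose and 3 fell, beside 11.1% and 9.54% of all genes, with a median change of 0.11. Cyp26b1, which breaks retinoic acid down and is itself retinoid-responsive, rose by 8.78 ± 0.28, and with the floor of 6 by 6.98. Crabp1 and Crabp2, intracellular binding proteins of retinoic acid, rose by 6.19 ± 0.38 and 4.58 ± 0.40. The receptor gene Rarg fell by 4.98 ± 0.66. Rarb, a receptor gene that retinoic acid induces, differed by 2.23 ± 0.72 (adjusted p = 0.0873) and passed with the block (0.0249). That is its brightest probe, and its other probes went both ways without a call, at -0.68 and 1.20 (adjusted p = 0.405 and 0.390 over probes). In the same list Dhrs3 fell by 1.63 ± 0.31 (adjusted p = 0.0152), and its call was lost in 2 of the 6 fits without 1 array. Cyp26a1 differed by 0.43 ± 0.36 without passing (adjusted p = 0.507). Crabp2, Rarb, Stra6, Aldh1a2, Dhrs3, Cyp26a1 and Gbx2 were named after their values were seen. The calls of Stra6 (2.27 ± 0.37) and of Aldh1a2 (-2.71 ± 0.44), an enzyme of retinoic acid synthesis, ended with the floor of 6 (adjusted p = 0.155 and 0.115).

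**Figure D4:**
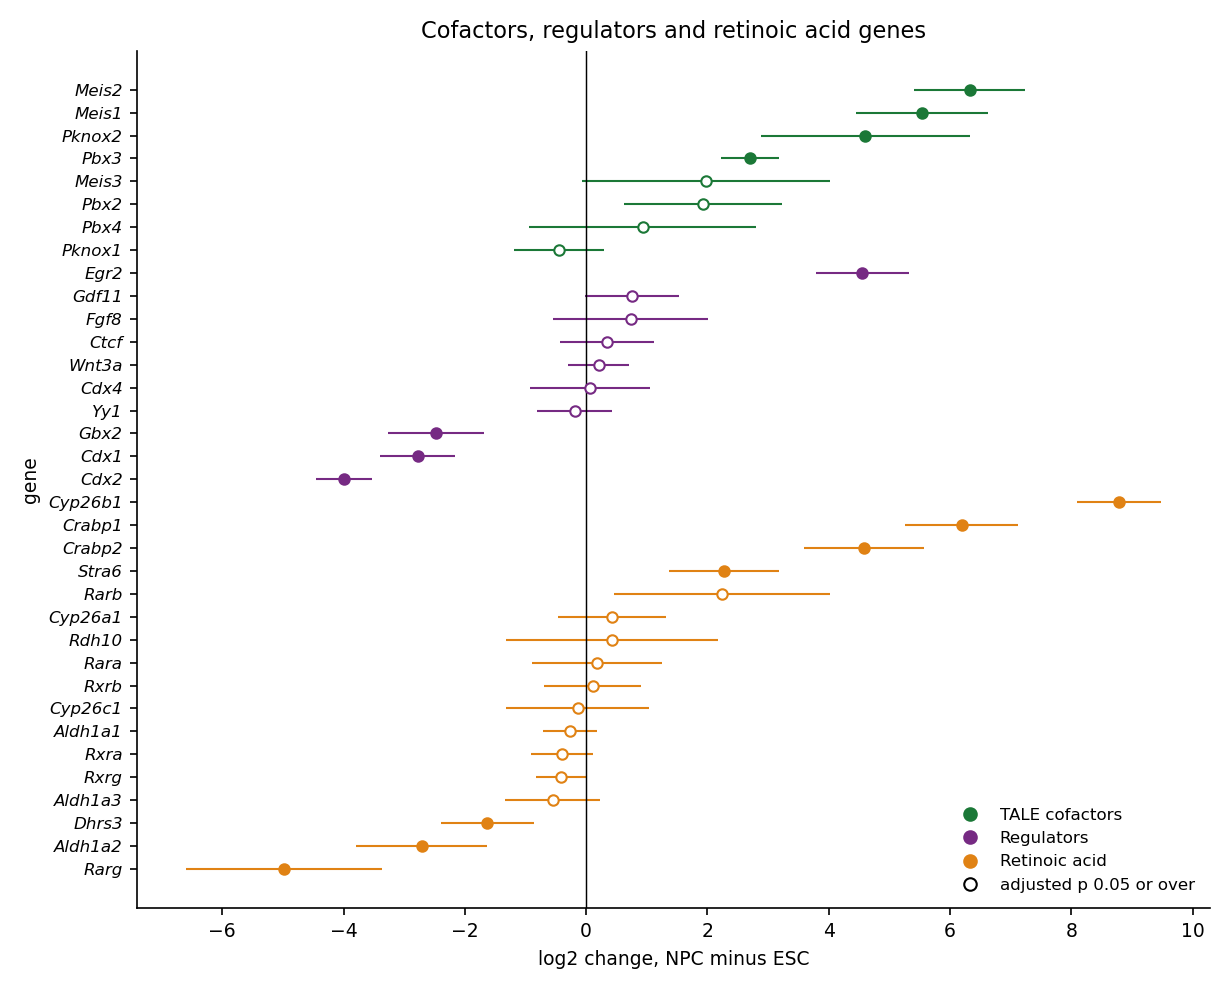
Log2 change of NPC minus ESC with 95% intervals (horizontal axis) for the measured TALE cofactors, upstream regulators and retinoic acid genes (vertical axis, sorted within each list), with open points for genes that did not pass. Meis2 (6.32), Egr2 (4.55) and Cyp26b1 (8.78) lead their lists, and Cdx2 (-3.99) and Rarg (-4.98) lie at the low ends.

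Polycomb genes, whose products silence Hox clusters, also split: of 15 measured 4 rose and 4 fell (6 and 7 with the block). Without NPC replicate 1 or without ESC replicate 1 only 2 fell, as Eed and Suz12 lost their calls. The shares of all genes called were 11.1% higher and 9.54% lower (18.9% and 16.7% with the block). Cbx8 rose by 4.77 ± 0.55 (1.31 with the floor of 6), Bmi1 by 3.57 ± 0.36 and Phc2 by 3.07 ± 0.44, the last by 1 of its 3 probes. Phc1 fell by 2.62 ± 0.33, while its other probe gave -0.31 and no call. Of 11 trithorax and H3K27 demethylase genes 0 rose and 1 fell (2 and 1 with the block), counts that do not exceed those shares of all genes. Dpy30, a core subunit of H3K4 methyltransferases, fell by 1.17 ± 0.27. Its call was lost in 4 of the 6 fits without 1 array (adjusted p up to 0.116), with the floor of 6 (0.0559) and with the mean of its probes (0.124).

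Markers of other cell types that express Hox genes were read in the same arrays. Neural crest markers rose for 3 of 7 measured genes and fell for 1, mesoderm markers rose for 1 of 9 and fell for 2, and endoderm markers rose for 2 of 7 and fell for 0. Of forebrain markers, a region without Hox expression, 1 of 7 rose and 1 fell. The shares over all genes were 11.1% higher and 9.54% lower, so the mesoderm and forebrain counts say little about those markers. Without NPC replicate 1, NPC replicate 2, ESC replicate 1 or ESC replicate 3 only 1 neural crest marker rose, as Twist1 and Snai2 lost their calls. Only 1 mesoderm marker fell in each fit that left out 1 array, except without ESC replicate 3, and with the floor of 6 none rose or fell. Without NPC replicate 3, 2 mesoderm markers rose. The log2 of the summed linear signal of the neural crest list ran from 9.75 to 10.14 in NPC and from 10.05 to 10.69 in ESC. Foxd3, which ES cells also express, made up most of the ESC sum, with means of 2.03 in NPC and 9.62 in ESC. Without it the other 6 genes summed to 9.74 to 10.14 in NPC and 8.73 to 9.04 in ESC, so the order of the groups turned. For the mesoderm list it ran from 10.19 to 10.62 in NPC and from 10.42 to 10.98 in ESC, for the endoderm list from 10.53 to 11.15 in NPC and from 7.38 to 8.16 in ESC. Without the brightest gene of each, Kdr and Foxa2, the mesoderm list summed to 8.24 to 8.83 in NPC and 7.73 to 8.65 in ESC, and the endoderm list to 8.86 to 9.33 in NPC and 7.20 to 7.99 in ESC. For the forebrain list the sum ran from 9.31 to 10.10 in NPC and from 12.30 to 13.17 in ESC. Without Otx2, its brightest gene, it ran from 8.38 to 8.54 in NPC and from 6.61 to 6.96 in ESC. Among forebrain markers Lhx2 rose and Otx2 fell. Leaving the brightest genes out was chosen after the data were seen. Of the 7 endoderm markers only Foxa2 and Cxcr4 rose, and the median change of the list was -0.25. Cxcr4, which stays in the sum without Foxa2, changed by 5.96 to 6.58 in the fits without 1 array. With the replicate block Gata6 fell (adjusted p = 0.0151). The part of these other cell types in the HoxA values was not tested.

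The profile of Hoxa2, the member with the largest change, was compared with all genes over the 6 arrays, each centred on its own mean. The closest were Pou3f2, a POU factor of neural progenitors, Ebf3 and Nhlh2, helix-loop-helix factors of young neurons, Slc44a5, a choline transporter-like gene, and Nr2f1, an orphan nuclear receptor. Their root mean square distances from Hoxa2 were 0.27 for Pou3f2, 0.29 for Ebf3, 0.31 for Slc44a5, 0.33 for Nr2f1 and 0.34 for Nhlh2 on the log2 scale. Pou3f2 read 11.74, 11.26 and 11.25 in NPC, against 2.94, 3.03 and 2.57 in ESC. With 2 groups this measure mostly finds genes with a change of like size.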

How the data were processed

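Total RNA of 3 NPC and 3 ESC samples was amplified in 1 round, labelled with Cy3 and read on Agilent arrays, according to the labels' protocols. The deposited table holds log2 signals, with the base inferred from their range of 1.03 to 16.18. The sorted columns are identical, so the authors had quantile normalised the deposited log2 values. That would hide a shift shared by most transcripts. The submitters' processing notes name limma, with no version. Of background correction and detection nothing is stated in the sources used here, and slides and scans were not analysed.

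Probes were named through the platform annotation (30626 with 1 symbol, 0 with several, 25055 unnamed here). Each gene was read by its probe of highest mean. limma 3.58.1 (R 4.3.3, lmFit and eBayes, two-sided) compared NPC with ESC over 21893 genes, and separately over all 55681 probes, without covariates, at an adjusted p under 0.05. It was checked on simulated data. Intervals are 95% and unadjusted. The members and lists were chosen with earlier results of these data known. Named are all members and measured listed neighbours, paralogs of called members, and the 5 genes closest to Hoxa2. From other lists the 3 largest called changes and the largest against the majority are named, while marker lists are given mostly as counts. Some listed genes are not reported here.

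The main fit used no pairing. Replicate numbers in the titles served only for the block fit and for the differences of same-numbered arrays. The deviations from group means of arrays with 1 number correlated over genes, with r = 0.19, 0.72 and 0.77. For NPC replicate 1 the closer ESC array was replicate 2 (r = 0.40). Other fits used the replicate number as a block, values under 6 set to 6, features with a group mean of at least 6, a mean-dependent spread, the mean of a gene's probes, or left out 1 array.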

Additional observations from a re-analysis of the deposited data

How the results depend on the processing

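The 3 HoxA calls, by gene or by probe, were 3 with the replicate block, with a mean-dependent spread and, by gene, when a gene's probes were averaged. They were 2 with the floor of 6 and with the filter at 6, which leaves out Hoxa5. Leaving out 1 array gave 2 to 3 calls. Hoxa2 and Hoxa3 were called in each of these fits. The change of Hoxa5 with the floor of 6 was 0, as all its values lie under 6, and without 1 array it was 1.43 to 2.05. The replicate block changed no call among the 10 members. The listed genes besides the members gave 71 calls, 90 with the replicate block, 55 with the floor of 6 and 60 to 76 without 1 array. Spearman's rho of cluster order with change was -0.67, -0.38 with the floor of 6, which sets the dim members to 0, and -0.68 to -0.52 without 1 array. Of the 8 differences between HoxA and HoxB paralogs, 3 changed sign with the floor of 6, an alternative chosen after seeing the data: Hoxa3 minus Hoxb3 became 0.41, Hoxa6 minus Hoxb6 -0.10 and Hoxa9 minus Hoxb9 -0.17. Signal over background limits all statements on Hoxa5, Hoxa10, Hoxa11 and Hoxa13, and no detection calls were used here. It may also limit those on Hoxa4, Hoxa6 and Hoxa7, whose group means of 5.39 to 6.16 lay near the floor of 6.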
